A study of Mus musculus with 9 samples.

Results

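RNA of the distal nephron and collecting duct was followed through 33 genes, listed by symbol, in cells sorted for a reporter of the proximal tubule. All 33 symbols were found among the 24421 genes of the deposited table, and all 33 passed the filter on low values, which left 15583 genes (at least 0.3 CPM, counts scaled by library to 1 common total, in at least 2 of the 9 mice). By the segment they are best known from, 9 are genes of the thick ascending limb, 4 of the distal convoluted tubule, 4 of the connecting tubule, 11 of principal cells and 5 of intercalated cells. The rule that lists them uses no measured value.

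Poly(A) RNA was sequenced from 9 mice, 3 in each of 3 groups, and each library came from 1 mouse. All mice carried a Cre recombinase that tamoxifen activates, placed in the Slc34a1 locus (SLC34a1GCE), and the R26tdTomato reporter, and all were given 5 injections of tamoxifen (3 mg/mouse) from 8 weeks of age. The db/m mice were heterozygous for the leptin receptor mutation Leprdb and served as non-diabetic controls. The db/db mice were homozygous, a model of type 2 diabetes, and received vehicle. The db/db-dapa mice were homozygous too and received dapagliflozin, an inhibitor of the glucose transporter SGLT2, in the drinking water at 1.5 mg/kg/day for 8 weeks. The strain is labelled C57BL/6, and the sex is not given in the sources used here. The labels name the tissue as kidney, whereas the study's methods describe live, tdTomato-positive cells sorted from digested cortex. Since Cre acts where Slc34a1 is active, the reporter is meant to mark the proximal tubule, and transcripts of later segments are not what the sort selects for. Cells per library, purity of the sort and ambient RNA were not measured in the files used here.

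Filtrate leaves the proximal tubule and passes in turn through the thick ascending limb, the distal convoluted tubule, the connecting tubule and the collecting duct. The thick ascending limb takes up salt without water, secretes uromodulin and takes up calcium and magnesium between its cells. The distal convoluted tubule takes up sodium chloride through the thiazide-sensitive transporter, and the connecting tubule recovers calcium and secretes kallikrein. In the collecting duct, principal cells take up water through aquaporins and sodium through the epithelial channel ENaC, whereas intercalated cells move acid and base with the vacuolar proton pump. Inhibition of SGLT2 in the proximal tubule leaves more glucose and sodium in the fluid that reaches these segments.

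To show the regulatory sequence in front of genes of different segments, the 250 bases before the RefSeq start site are given for 4 of the 5 genes chosen to stand for a segment (GRCm38.p6, 5′ to 3′ on the gene's strand). Capitals mark matches, on either strand, to 1 of 4 short motifs. These were GTTAAT (a half-site of the tubule factor HNF1), GTAAACA (forkhead factors, of which Foxi1 is a member), AACCNGTT (grainyhead factors) and TATAAA (the TATA box). The windows lie at chr7:119479263-119479512 (minus strand) for Umod, chr8:94328958-94329207 (plus) for Slc12a3, chr15:99578806-99579055 (plus) for Aqp2 and chr1:138273488-138273737 (plus) for Atp6v1g3.
Umod: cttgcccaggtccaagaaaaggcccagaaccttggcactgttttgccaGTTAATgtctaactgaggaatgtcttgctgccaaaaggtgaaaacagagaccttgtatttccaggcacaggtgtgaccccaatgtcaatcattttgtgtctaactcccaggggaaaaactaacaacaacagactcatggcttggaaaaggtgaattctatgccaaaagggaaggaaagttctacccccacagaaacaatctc
Slc12a3: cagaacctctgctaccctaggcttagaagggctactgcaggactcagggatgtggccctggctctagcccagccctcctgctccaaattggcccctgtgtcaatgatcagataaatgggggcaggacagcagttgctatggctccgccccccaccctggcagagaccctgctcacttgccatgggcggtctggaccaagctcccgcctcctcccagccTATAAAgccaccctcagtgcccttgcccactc
Aqp2: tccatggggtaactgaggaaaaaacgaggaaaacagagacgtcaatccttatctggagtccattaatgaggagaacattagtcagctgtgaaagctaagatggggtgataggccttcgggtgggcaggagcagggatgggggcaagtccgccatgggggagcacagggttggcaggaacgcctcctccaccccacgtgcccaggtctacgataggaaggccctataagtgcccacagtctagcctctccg
Atp6v1g3: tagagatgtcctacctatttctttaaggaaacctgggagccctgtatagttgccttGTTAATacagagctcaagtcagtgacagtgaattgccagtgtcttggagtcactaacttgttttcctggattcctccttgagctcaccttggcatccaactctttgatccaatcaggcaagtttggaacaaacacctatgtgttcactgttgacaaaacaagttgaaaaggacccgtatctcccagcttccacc
The GTTAAT match began 202 bases before the start of Umod and 194 before that of Atp6v1g3, the TATAAA match began 32 bases before that of Slc12a3, and the Aqp2 window held none of the 4. Among the 26 members with an entry, 3 held GTTAAT, against 6.43% of all 32851 promoters of this length. Forkhead matches were found in 3 of the 26 (3.17% of all), TATAAA in 5 (12.4% of all) and the grainyhead motif in 0 (1.79% of all). A member was counted when any of its entries matched, whereas the shares are over single promoters, so the 2 are not in the same unit. A match of letters is a description and does not show that a factor binds there.

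The counts summed to between 2733349 in replicate 1 of db/db and 9033123 in replicate 3 of db/db-dapa, so that 3 counts stood for 1.02 CPM in the smallest library and 0.339 CPM in the largest. Levels are in CPM relative to TMM-scaled libraries and, where 9 values follow each other, they run from replicate 1 to 3 in each group. Slc34a1, the gene that drives the Cre, was at 3819 ± 312 CPM for db/m, 5110 ± 954 CPM for db/db and 4549 ± 83.5 CPM for db/db-dapa (SD, n = 3 per group), above each distal gene. The mean log2(CPM + 1) of 12 proximal tubule markers was 9.73 in db/db replicate 1 and 9.85 in db/db replicate 2, below the 10.4 to 10.8 of the other mice. This mean joins markers that moved in opposite ways. Replicate 1 of db/db was the highest mouse for 3 of them (Slc34a1, Slc5a2 and Slc5a12) and the lowest for Slc22a6, Slc13a3, Slc27a2 and Kap. Markers of other cells varied between libraries as well. The summed level of 5 podocyte markers was 255 CPM in db/db-dapa replicate 1 and 17.99 to 80.9 in the others. That of 7 endothelial markers was 133 to 199.9 CPM in db/m replicate 3, db/db replicates 1 and 2 and db/db-dapa replicate 1 and 44.8 to 62.6 in the others. The 8 leukocyte and macrophage markers summed to 104 to 506 CPM, the 6 fibroblast and mural markers to 1.70 to 15.6, and the 7 erythroid genes to 38.2 to 1869, with the top value in db/db replicate 2. Among the erythroid genes, Hba-a1 and Hba-a2, Hbb-bt and Hbb-b2, and Hbb-bs and Hbb-b1 had identical values in each mouse. The erythroid sum thus counts these values repeatedly, and the 7 genes are not 7 separate measurements. The fibroblast genes Col1a1, Col3a1 and Pdgfra were at 0 in at least 1 mouse, and no other marker was.

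The 33 distal transcripts made up 0.348%, 0.270% and 0.604% of all counts in db/m mice, 0.478%, 0.259% and 0.239% in db/db mice and 0.258%, 0.208% and 0.212% in db/db-dapa mice. Replicate 3 of db/m and replicate 1 of db/db stood apart from the other mice. The former was the highest mouse for 23 of the 33 members, against 20.5% of all genes tested, and the latter for 8, against 15.8%. These 2 mice were the top pair for 20 of the 33 members, which was so for 8.45% of all genes. At the other end, db/db-dapa replicates 2 and 3 were among the 3 lowest mice for 24 and 22 members. The share of all genes was not computed for this count, so it is given as a description only. The pair was singled out after these values had been seen, and each comparison below is given with and without it. In RNA from pooled cells, fewer cells of a type and less RNA per cell cannot be told apart.

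**Figure D1:**
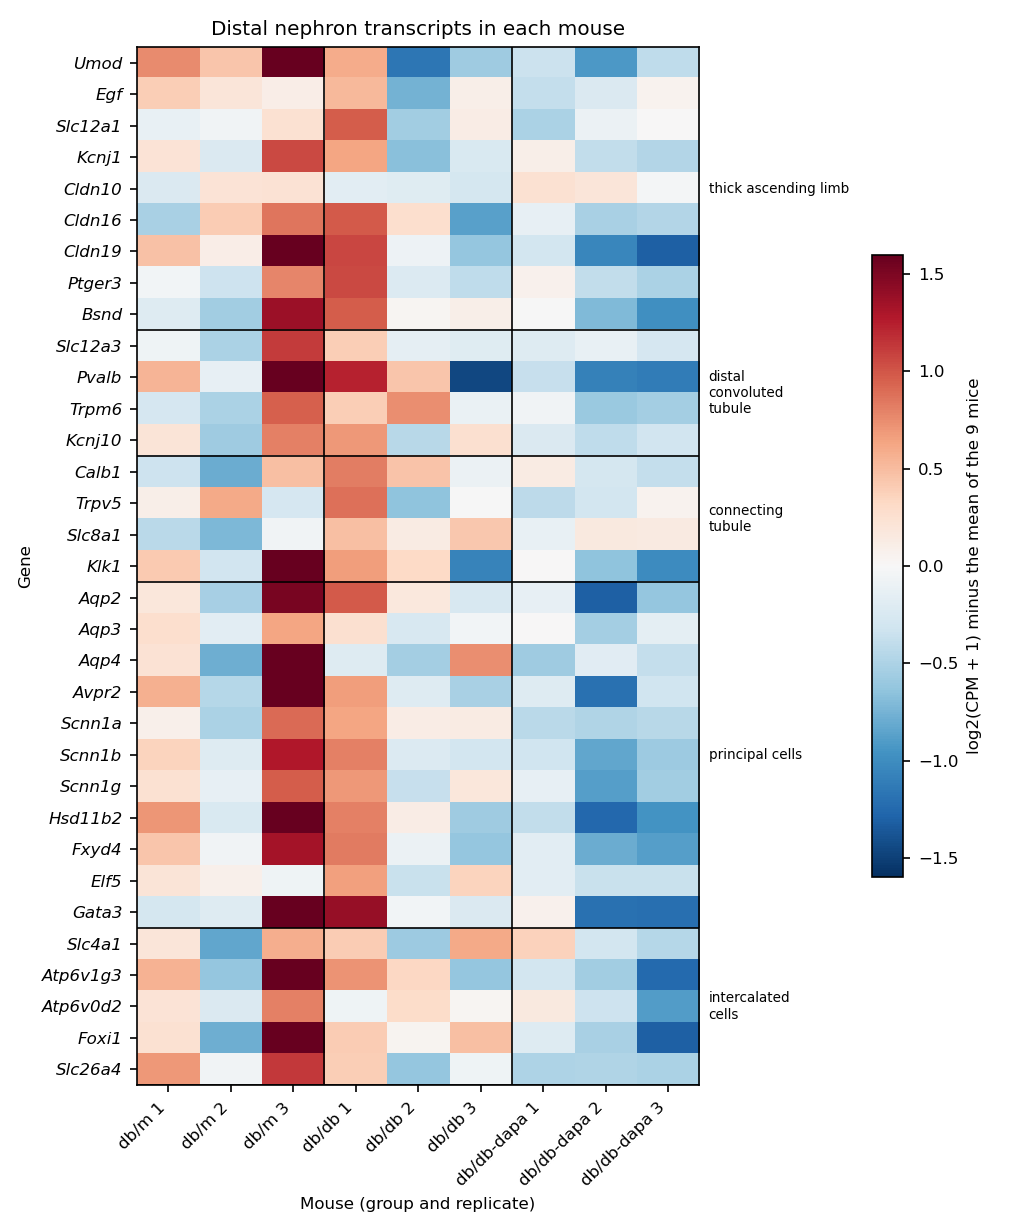
Level of the 33 transcripts (rows, grouped by segment) in the 9 mice (columns), as log2(CPM + 1) minus the gene's mean over the 9 mice, with the color scale ending at 1.6 either way. The columns of db/m replicate 3 and db/db replicate 1 are the darkest red, and db/db-dapa replicates 2 and 3 are mostly blue.

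Among the thick ascending limb genes, Umod, which encodes uromodulin, the main protein of normal urine, had the highest level per transcript length (199 CPM per kb over the 9 mice). Its locus in GRCm38 (mm10) is on chromosome 7, 119462711 to 119479282. It was measured at 737, 593 and 1315 CPM in db/m, 661, 195 and 294 CPM in db/db and 344, 231 and 329.6 CPM in db/db-dapa mice. Each db/db-dapa mouse lay below each db/m mouse, whereas db/db replicate 1 lay within the db/m range. The log2 fold change was -1.20 ± 0.42 (SE) for db/db versus db/m (edgeR, adjusted p = 0.237) and -1.55 ± 0.42 for db/db-dapa versus db/m (edgeR, adjusted p = 0.138). For db/db-dapa versus db/db, it was -0.34 ± 0.42 (edgeR, adjusted p = 0.886), and 0.30 without db/db replicate 1.

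The other thick limb genes did not share 1 pattern. Slc12a1, the sodium-potassium-chloride transporter that loop diuretics block, was at 147, 154 and 190.1 CPM in db/m, 313, 108 and 174 CPM in db/db and 112, 150.3 and 161 CPM in db/db-dapa mice, and the 3 groups overlapped. Egf, whose product is shed into urine, was at 566, 491 and 464 CPM in db/m mice and at 329, 368 and 449 CPM in db/db-dapa mice, without overlap, while db/db mice spanned 253 to 618 CPM. Cldn10, a claudin, varied least, 1.44-fold between the highest and the lowest mouse, and was 167, 161 and 138 CPM in db/db-dapa against 124, 123 and 116 CPM in db/db mice, also without overlap. The counts are per gene, so the transcript forms of Cldn10 were not told apart. Which cells its RNA came from was not tested. The text singles out Egf, Cldn10, Cldn19, Bsnd and Slc12a1 here, and Pvalb, Scnn1b, Scnn1g, Foxi1 and Slc4a1 below, outside the rule for named genes, after their values had been seen. At lower levels, Cldn19, a claudin of magnesium and calcium uptake, varied 11.9-fold, from 1.81 CPM in db/db-dapa replicate 3 to 21.5 CPM in db/m replicate 3. Its log2 fold change was -2.04 ± 0.59 (SE) for db/db-dapa versus db/m (edgeR, adjusted p = 0.154). Bsnd, which encodes the chloride channel subunit barttin, was at 5.20 to 11.2 CPM in db/db-dapa, 11.6 to 23.1 CPM in db/db and 7.33 to 30.6 CPM in db/m mice. Kcnj1 (the potassium channel ROMK), Cldn16 and Ptger3, a prostaglandin receptor, averaged 62.2, 4.30 and 6.74 CPM over the 9 mice, and their groups overlapped in each comparison.

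Slc12a3, which encodes the thiazide-sensitive sodium chloride transporter, led the distal convoluted tubule genes (60.2 CPM per kb). It lies on chromosome 8 from 94329201 to 94366214. The mice had 233, 172 and 531 CPM (db/m), 321, 222 and 215 CPM (db/db) and 212, 225 and 203 CPM (db/db-dapa). Apart from db/m replicate 3 and db/db replicate 1, all values lay between 172 and 233 CPM. The log2 fold change was -0.24 ± 0.35 (SE) for db/db-dapa versus db/db, -0.31 ± 0.35 for db/db versus db/m and -0.55 ± 0.35 for db/db-dapa versus db/m (edgeR, adjusted p = 0.903, 0.735 and 0.400), and the last was 0.07 without db/m replicate 3. Pvalb, encoding the calcium-binding protein parvalbumin of the early part of this segment, spread further, 11.4-fold. It was 51.0, 31.4 and 137 CPM in db/m, 82.6, 47.2 and 12.0 CPM in db/db and 26.5, 15.8 and 15.4 CPM in db/db-dapa mice, so that db/db-dapa lay below db/m mice in each case. Trpm6, a magnesium channel, and Kcnj10, a basolateral potassium channel, ranged from 6.83 to 21.98 and from 14.0 to 37.7 CPM, highest in db/m replicate 3, and their groups overlapped.

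In the connecting tubule, Klk1, which encodes tissue kallikrein, had the highest level per length of the 33 genes (799.6 CPM per kb). Its values were 857, 517 and 1987 CPM in db/m, 1022, 803.5 and 306 CPM in db/db and 643, 409.6 and 319 CPM in db/db-dapa mice, with overlap in each comparison. Calb1, on chromosome 4 from 15881264 to 15908064, encodes the calcium buffer calbindin and had a higher mean in db/db than in db/m mice. It was at 115, 82.5 and 201 CPM in db/m, 255, 198 and 136 CPM in db/db and 157, 118 and 111 CPM in db/db-dapa mice. The log2 fold change of Calb1 was 0.56 ± 0.32 (SE) for db/db versus db/m, -0.60 ± 0.32 for db/db-dapa versus db/db and -0.04 ± 0.32 for db/db-dapa versus db/m (edgeR, adjusted p = 0.475, 0.854 and 0.954).

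Slc8a1, the sodium-calcium exchanger of the basolateral membrane, was the 1 member higher in each db/db mouse than in each db/m mouse. It was at 33.1, 27.0 and 43.1 CPM in db/m, 63.2, 49.4 and 60.9 CPM in db/db and 41.3, 50.1 and 49.7 CPM in db/db-dapa mice. Its log2 fold change for db/db versus db/m was 0.75 ± 0.20 (SE), and the adjusted p missed the threshold (edgeR, adjusted p = 0.125). Values with 1 mouse left out ran from 0.60 to 0.94. Trpv5, the apical calcium channel, ranged from 6.803 to 21.4 CPM and overlapped between groups.

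Aqp2, the water channel that vasopressin brings to the apical membrane, led the principal cell genes (85.1 CPM per kb). It lies on chromosome 15 from 99579055 to 99584547. It was at 116, 70.3 and 295 CPM in db/m, 204, 115 and 85.9 CPM in db/db and 93.1, 40.8 and 66.3 CPM in db/db-dapa mice, where db/db-dapa replicate 1 lay above the lowest mouse of each other group. The log2 fold change was -1.01 ± 0.50 (SE) for db/db-dapa versus db/db, -0.26 ± 0.49 for db/db versus db/m and -1.26 ± 0.50 for db/db-dapa versus db/m (edgeR, adjusted p = 0.854, 0.852 and 0.235). Without db/m replicate 3 the second of these was 0.52. Avpr2, the vasopressin receptor, and Aqp3, a basolateral water channel, were also highest in db/m replicate 3 and lowest in db/db-dapa replicate 2, over 2.63 to 25.5 and 54.6 to 124 CPM. Aqp4, another basolateral water channel, stayed between 0.349 and 6.44 CPM.

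Scnn1a, the alpha subunit of ENaC, had the smallest unadjusted p of the 33 members for db/db-dapa versus db/db. It was at 57.5, 37.9 and 102 CPM in db/m, 83.9, 58.6 and 59.2 CPM in db/db and 39.7, 38.3 and 39.6 CPM in db/db-dapa mice. The db/db-dapa mice lay close together and below each db/db mouse, with a log2 fold change of -0.77 ± 0.30 (SE), and the adjusted p was far from the threshold (edgeR, adjusted p = 0.854). The beta and gamma subunits, Scnn1b and Scnn1g, had log2 fold changes of -0.76 ± 0.39 and -0.75 ± 0.35 (SE) in the same comparison. Scnn1b was at 14.3 to 20.7 CPM in db/db-dapa and 21.2 to 46.6 CPM in db/db mice, without overlap, while Scnn1g, at 9.715 to 17.0 and 14.4 to 30.9 CPM, overlapped.

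Hsd11b2, the enzyme that inactivates glucocorticoids and so keeps the mineralocorticoid receptor open to aldosterone, was at 112, 57.9 and 242 CPM in db/m, 121, 74.6 and 46.0 CPM in db/db and 52.1, 28.2 and 34.8 CPM in db/db-dapa mice. Each db/db-dapa mouse was below each db/m mouse, and db/db-dapa replicate 1 was above db/db replicate 3. The log2 fold change was -1.84 ± 0.48 (SE) for db/db-dapa versus db/m (edgeR, adjusted p = 0.123), -1.06 ± 0.48 for db/db-dapa versus db/db (adjusted p = 0.854) and -0.78 ± 0.47 for db/db versus db/m (adjusted p = 0.503). Fxyd4, a regulator of the sodium pump, ranged from 9.28 to 46.6 CPM and was lower in each db/db-dapa than in each db/m mouse. Gata3, a transcription factor of the duct, ranged from 1.70 to 19.3 CPM, highest in db/m replicate 3 and db/db replicate 1. Elf5, a transcription factor of principal cells, had 3, 2 and 1 counts in db/m, 3, 0 and 5 in db/db and 1, 0 and 0 in db/db-dapa mice. It reached the filter through 4 mice, of which 0 were db/db-dapa mice, so that a lower value in that group was built in and supports nothing. The ratio of db/db-dapa to db/db was 0.0843, with an exact 95% interval of 0.00190 to 0.629 that covers counting error only.

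In intercalated cells, Atp6v1g3, a subunit of the proton pump, had the highest level per length (14.5 CPM per kb). It lies on chromosome 1 from 138273738 to 138289462. Its values were 33.5, 14.3 and 75.5 CPM in db/m, 37.7, 28.4 and 14.3 CPM in db/db and 18.2, 14.97 and 8.94 CPM in db/db-dapa mice, with overlap in each comparison. The log2 fold change was -0.91 ± 0.53 (SE) for db/db-dapa versus db/db, -0.64 ± 0.52 for db/db versus db/m and -1.55 ± 0.53 for db/db-dapa versus db/m (edgeR, adjusted p = 0.854, 0.627 and 0.201).

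Slc26a4, which encodes pendrin, the chloride-bicarbonate exchanger of base-secreting cells, was at 47.2, 27.6 and 64.4 CPM in db/m, 38.1, 18.4 and 27.3 CPM in db/db and 20.2, 20.2 and 20.02 CPM in db/db-dapa mice. The db/db-dapa mice differed by less than 1 CPM and lay below each db/m mouse. For db/db-dapa versus db/m, the log2 fold change was -1.20 ± 0.31 (SE), the smallest adjusted p of the members in that comparison (edgeR, adjusted p = 0.115). It was -0.74 ± 0.31 for db/db versus db/m (edgeR, adjusted p = 0.318) and -0.46 ± 0.31 for db/db-dapa versus db/db (adjusted p = 0.854). Foxi1, the transcription factor that specifies intercalated cells, was at 2.83 to 7.24 CPM in db/db-dapa and 8.80 to 12.3 CPM in db/db mice, without overlap, and at 4.54 to 28.6 CPM in db/m mice. Atp6v0d2, another pump subunit, ranged from 7.24 to 25.8 CPM. Slc4a1 encodes the anion exchanger of acid-secreting cells and also of red cells. It was at 9.61, 4.19 and 12.9 CPM in db/m, 11.2, 5.20 and 13.1 CPM in db/db and 10.9, 6.56 and 5.77 CPM in db/db-dapa mice. In db/db replicate 2, where the erythroid genes, those with identical values included, summed to 1869 CPM, it was the second lowest value of the 9.

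The comparison of db/db-dapa with db/db mice asks what dapagliflozin did in diabetic mice. Of the 33 members, 32 had lower and 1, Cldn10, a higher mean in db/db-dapa mice, with a median log2 fold change of -0.64 against -0.01 over all genes tested. A member counts as called when its adjusted p is below 0.1 and its log2 fold change exceeds 1 in size. edgeR called 0 members, against 0% of all genes, and the smallest adjusted p was 0.854. An unadjusted p under 0.05 was found for 3 members, all lower (Scnn1a, Elf5 and Hsd11b2), against 3.27% of all genes lower and 1.91% higher, or for 2 with Elf5 left aside. The groups did not overlap for 4 lower members (Scnn1a, Scnn1b, Foxi1 and Bsnd), against 5.29% of all genes, and for 1 higher member (Cldn10), against 4.9%. The medians were -0.49 for the thick ascending limb, -0.70 for the distal convoluted tubule, -0.51 for the connecting tubule, -0.77 for principal cells and -0.46 for intercalated cells. Without db/db replicate 1 that of the thick limb turned to 0.06, and that of the connecting tubule was -0.26. Markers of other cells moved in the same comparison. All 7 endothelial, 8 leukocyte and macrophage and 7 erythroid markers had a lower mean in db/db-dapa mice (medians of -0.50, -0.78 and -1.95), whereas all 5 podocyte markers and 8 of 12 proximal markers had a higher one (0.78 and 0.32), and the fibroblast and mural genes were split evenly. The erythroid count includes the genes with identical values named above. The part of these other cells in the values of the members was not tested. DESeq2 called 0 members (0.0834% of all genes) and limma on log2(CPM + 1) 0 (0% of all genes). limma's voom with sample weights called 4 (Pvalb, Aqp2, Trpm6 and Hsd11b2; 2.88% of all genes). Without db/m replicate 3 and db/db replicate 1 together, 27 members were lower and 6 higher, with a median of -0.29, and 2 had an unadjusted p under 0.05. That last number was 0 without replicate 1 of db/db, 0 without replicate 2 of db/db-dapa, 1 (a higher member) without replicate 3 of db/db-dapa and 13 without db/m replicate 3 or db/db replicate 3. In all 9 mice it was 7 with library totals or without the filter, 8 with DESeq2 and 17 with voom. It was 1 with limma on log2(CPM + 1) or a filter of 1 CPM in 3 mice. When only the mice of the 2 groups were fitted, it was 10. The share of all genes with such a p was not computed for these settings. It may differ from that of edgeR, since voom called 2.88% of all genes where edgeR called 0%. These counts are therefore no result about the members.

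Comparing db/db with db/m mice, which addresses the diabetic state, 25 members had a lower and 8 a higher mean in db/db mice. Their median on the log2 scale was -0.26, against 0.02 over all genes. edgeR called 0 members, against 1.24% of all genes. With an unadjusted p under 0.05, 2 members were lower (Umod and Slc26a4; 6.21% of all genes) and 1 was higher (Slc8a1; 7.53%). The groups did not overlap for 0 lower members (8.13% of all genes) and 1 higher member (Slc8a1; 8.28%). By segment, the median was -0.20 in the thick ascending limb, -0.17 in the distal convoluted tubule, 0.27 in the connecting tubule, -0.28 in principal cells and -0.39 in intercalated cells. Without db/m replicate 3 these were -0.02, 0.33, 0.49, 0.15 and 0.12, and without db/db replicate 1 that of the connecting tubule was -0.09 and that of the thick limb -0.60. The medians of the endothelial, leukocyte and erythroid markers were 0.67, 0.47 and 0.89. Umod was called by DESeq2 (1 member; 2.33% of all genes). limma on log2(CPM + 1) called 0 members (1.28% of all genes) and voom with sample weights 0 (1.68%). The direction of the list changed without db/m replicate 3, when 11 members were lower and 22 higher, with a median of 0.15. Without that mouse and db/db replicate 1 together, 20 were lower and 13 higher, with a median of -0.18. Umod was then called by edgeR (1 member, against 0.882% of all genes). It was also called without db/db replicate 1 alone (1 member, against 1.35% of all genes). With 1 mouse left out, 1 to 8 members had an unadjusted p under 0.05, with 8 without db/db replicate 1, 6 without db/m replicate 2 and 1 without db/db replicate 2. The share of all genes with such a p was not computed for these fits.

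In the comparison of db/db-dapa with db/m mice, groups that differ in diabetes and in treatment, 31 members had a lower and 2 a higher mean (Slc8a1 and Cldn10). The median log2 fold change was -0.97, against -0.02 over all genes. edgeR called 0 members, against 1.05% of all genes, and 15 members had an unadjusted p under 0.05 and were lower, against 8.39% of all genes. For 1 member, Slc8a1, that p was under 0.05 with a higher mean (9.77% of all genes). The groups did not overlap for 10 lower members, against 13.7% of all genes, and for 0 higher members, against 14.4%. The 10 were Umod, Egf, Cldn19, Pvalb, Scnn1b, Scnn1g, Hsd11b2, Fxyd4, Elf5 and Slc26a4, or 9 with Elf5 left aside. The medians were -0.69, -0.61, -0.24, -1.34 and -1.20 for the thick ascending limb, the distal convoluted tubule, the connecting tubule, principal cells and intercalated cells, and -0.26, -0.11, -0.11, -0.60 and -0.52 without db/m replicate 3. The leukocyte and erythroid markers had medians of -0.58 and -1.22, the endothelial ones of 0.18. Of the 15 lower members with an unadjusted p under 0.05, 8 were among the 11 principal cell genes and 3 among the 5 intercalated cell genes. Other tools gave other counts. DESeq2 called 7 members, all lower (Umod, Cldn19, Scnn1b, Hsd11b2, Fxyd4, Atp6v1g3 and Slc26a4), against 3.25% of all genes. voom with sample weights called 13, against 10.4% of all genes, and limma on log2(CPM + 1) called 0, against 0.937%. Without db/m replicate 3, 28 members were lower, and 4 lower members and 1 higher one had an unadjusted p under 0.05. The number was 9 without db/db-dapa replicate 2 or 3 and 23 without db/m replicate 2. Without db/m replicate 3 and db/db replicate 1 together, 28 were lower, 6 of them with an unadjusted p under 0.05. The share of all genes with such a p was not computed for the fits with mice left out. The 3 comparisons share groups of mice, so their directions are not independent of each other.

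**Figure D2:**
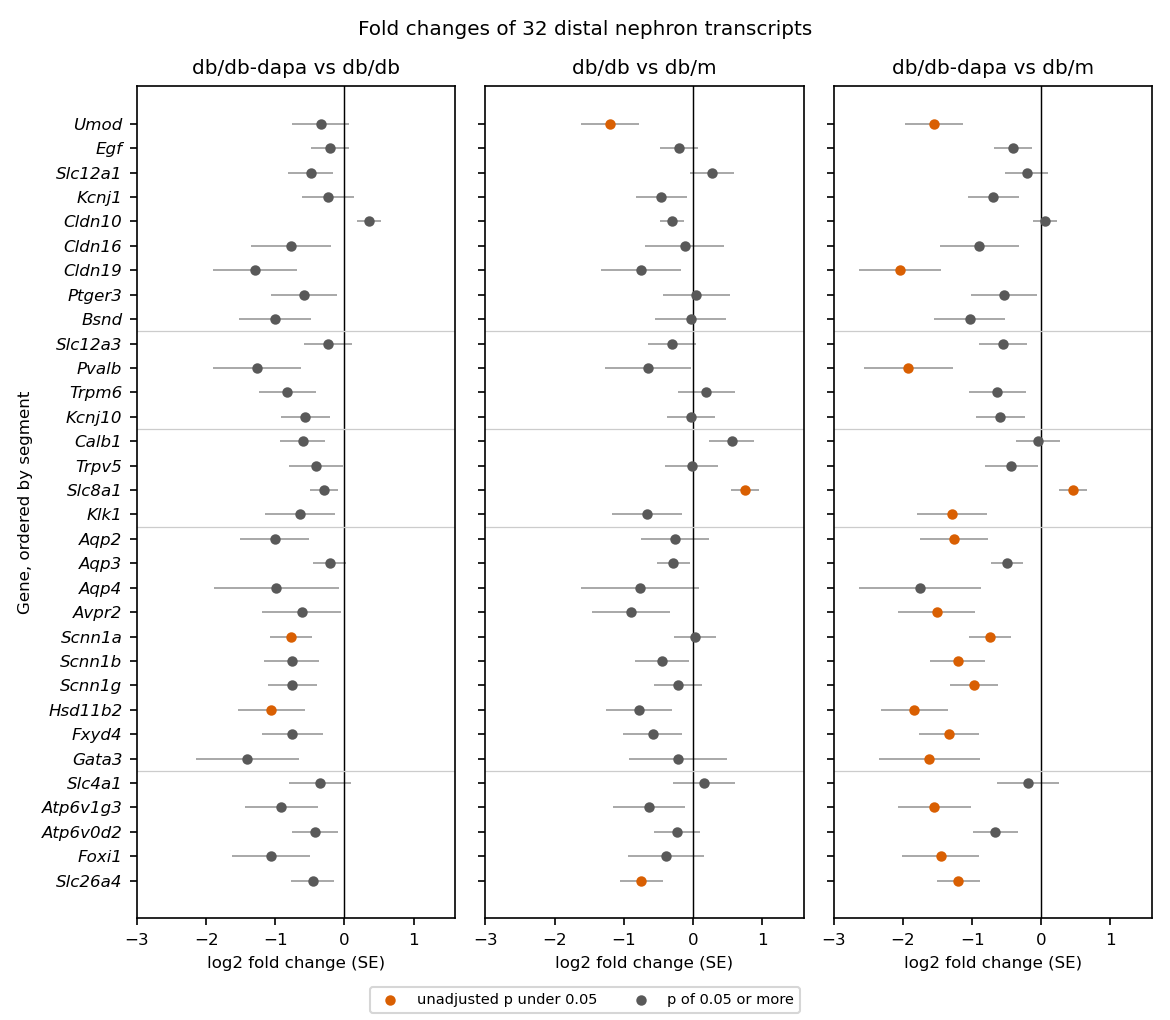
Log2 fold changes (points, with standard errors as bars) of 32 members in the 3 comparisons, ordered by segment. Orange points have an unadjusted p under 0.05, and 0 of the members passed the adjusted threshold. Elf5 is left out because it had few counts.

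Set side by side mouse by mouse, the segments kept a similar but not identical order. The mean log2(CPM + 1) of the thick limb genes was 6.37 in db/m replicate 3 and 6.23 in db/db replicate 1, and 5.03 to 5.57 in the other mice. For the distal convoluted tubule these 2 mice had 6.49 and 5.96, and the others 4.72 to 5.43. For principal cells they had 5.36 and 4.82, and the others 3.32 to 4.41. The connecting tubule was the 1 segment in which db/db replicate 1 was above db/m replicate 3, at 7.12 against 6.85. Intercalated cells were the 1 segment in which db/db replicate 1 (4.34) was not in the top pair, since db/m replicate 1 was at 4.35. The mean of the proximal markers did not share this order, with 10.5 in db/m replicate 3 and 9.73 in db/db replicate 1. Single proximal markers differed, since db/db replicate 1 was the highest mouse for 3 of the 12 (Slc34a1, Slc5a2 and Slc5a12). It was the lowest mouse for Slc22a6, Slc13a3, Slc27a2 and Kap. Of those 12 markers, 0 had the 2 mice as their top pair, against 6 of 9 thick limb genes, 3 of 4 distal convoluted tubule genes, 2 of 4 connecting tubule genes, 8 of 11 principal cell genes and 1 of 5 intercalated cell genes. This was so for 0 of 5 podocyte, 1 of 7 endothelial, 0 of 8 leukocyte, 0 of 6 fibroblast and 0 of 7 erythroid markers. Because the pair was singled out after the values of the members had been seen, these counts favour the members and are a description only. The part of a difference in the makeup of the sorted cells in any of these values was not tested.

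**Figure D3:**
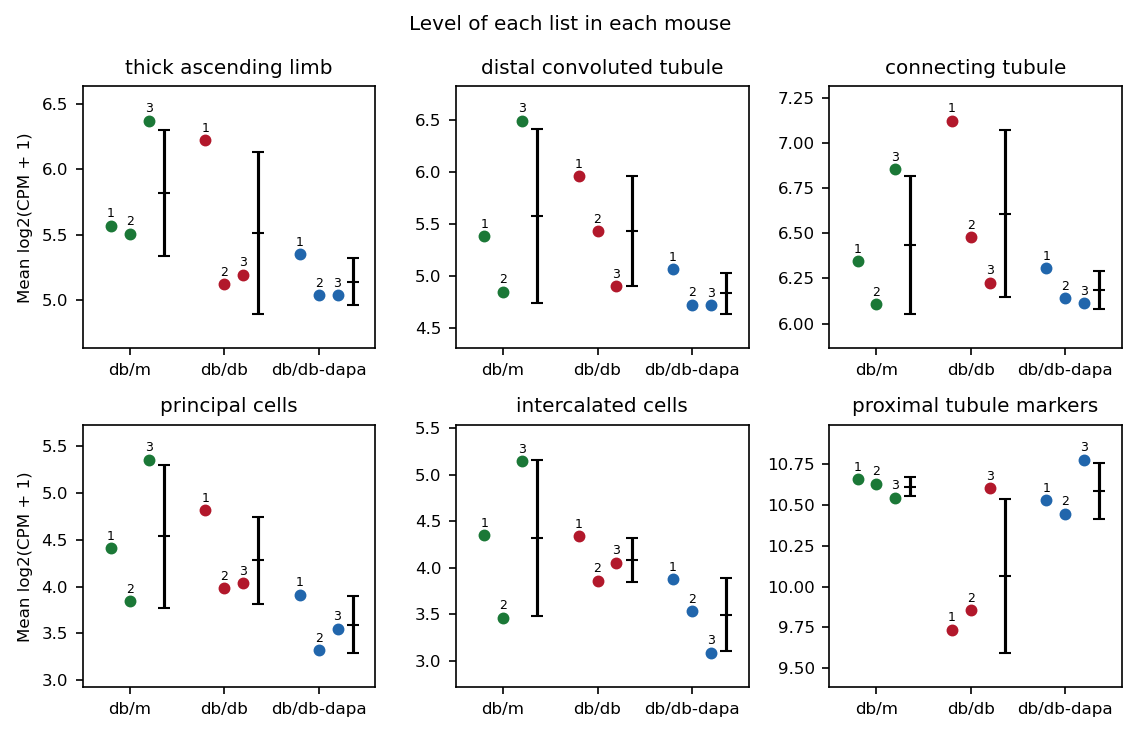
Mean log2(CPM + 1) of the genes of each segment, and of 12 proximal tubule markers, in each mouse (points, numbered by replicate), with the group mean and SD (n = 3) as bars. The scales differ between panels. In the 5 distal panels db/m replicate 3 or db/db replicate 1 is the highest mouse, and in the proximal panel db/db replicate 1 is the lowest.

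Genes that stand for different segments were then compared with each other over the 9 mice on the log2(CPM + 1) scale. Pearson's r between the 5 genes Umod, Slc12a3, Calb1, Aqp2 and Atp6v1g3 lay between 0.15 (Umod and Calb1) and 0.89 (Aqp2 and Atp6v1g3) in the 10 pairs. Adjusted over the 10 pairs, 3 passed 0.05 by r and 2 of these by Spearman's rho (exact permutation tests, two-sided). All 9 mice were permuted without regard to group, so differences between groups enter these p-values. Aqp2 and Atp6v1g3, of the 2 kinds of collecting duct cells, had r = 0.89 (exact permutation p = 0.001, adjusted p = 0.009) and rho = 0.88 (exact permutation p = 0.003, adjusted p = 0.030), and r was 0.90 without the 2 mice farthest from the median of Aqp2. Slc12a3 and Atp6v1g3 had r = 0.86 (exact permutation p = 0.002, adjusted p = 0.009) and rho = 0.85 (exact permutation p = 0.006, adjusted p = 0.030). Slc12a3 and Aqp2 had r = 0.83 (exact permutation p = 0.004, adjusted p = 0.012) and rho = 0.72 (exact permutation p = 0.037, adjusted p = 0.072). Without the 2 mice farthest from the median of Slc12a3, which were db/m replicate 3 and db/db replicate 1, r was 0.53 and 0.22 for these pairs, with no test over the 7 mice left. The relation of Slc12a3 and Aqp2 thus rested largely on those mice, and that of Slc12a3 and Atp6v1g3 in part. In the other 7 pairs the adjusted p of r was 0.051 to 0.703 (exact permutation). After each group's mean was taken away, r was 0.58 to 0.97 over the 10 pairs, given here as a description. These values include db/m replicate 3 and db/db replicate 1 and were not computed without them. They therefore do not show how the other mice vary within their groups.

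**Figure D4:**
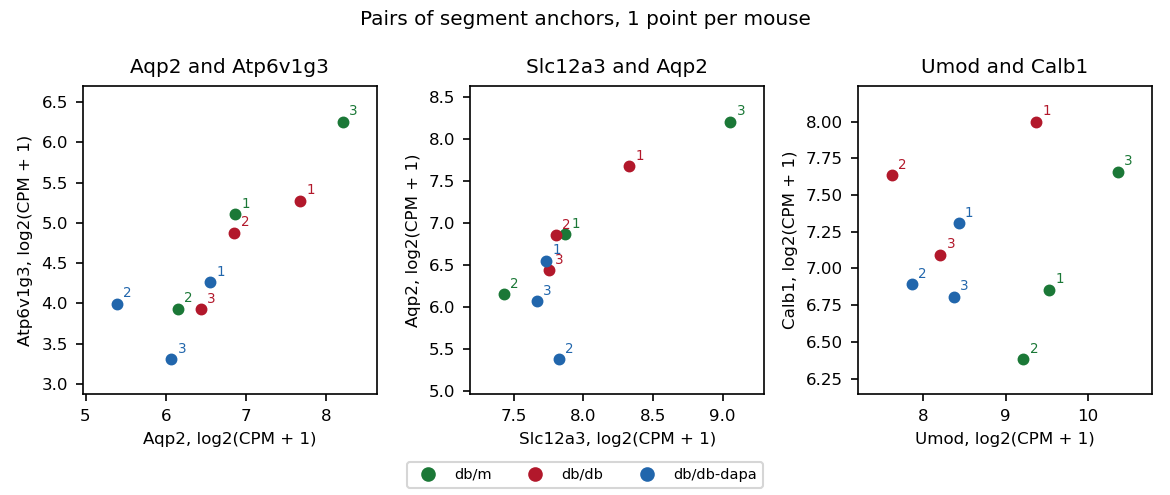
Levels of 3 pairs of genes from different segments, as log2(CPM + 1), with 1 point per mouse, colored by group and numbered by replicate. Aqp2 and Atp6v1g3 rise together (r = 0.89), Slc12a3 and Aqp2 do so mainly through 2 mice, and Umod and Calb1 (r = 0.15) do not line up over the groups.

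Members were also set against the other genes of their own segment in the same mouse, as the log2(CPM + 1) of a member minus the mean of the others. Umod was 4.17 to 4.49 above the other thick limb genes in db/m mice, 2.81 to 3.54 above them in db/db mice and 3.18 to 3.75 in db/db-dapa mice. Slc8a1 was at -1.86 to -1.68 relative to the other connecting tubule genes in db/m mice, -1.49 to -0.37 in db/db and -1.21 to -0.60 in db/db-dapa mice. Umod relative to its segment was thus lower, and Slc8a1 higher, in each of the 6 homozygous mice than in each db/m mouse. For the other 31 members the db/m mice overlapped with the 6 homozygous mice as 1 set. Between pairs of groups, Calb1 and Scnn1a were also higher in each db/db than in each db/m mouse. In db/db-dapa mice 7 members were lower than in each db/m mouse (Umod, Cldn19, Pvalb, Scnn1b, Hsd11b2, Fxyd4 and Atp6v1g3) and 7 higher (Cldn10, Ptger3, Slc12a3, Trpm6, Slc8a1, Aqp3 and Slc4a1). Set against db/db mice, Bsnd and Foxi1 were lower and Cldn10 and Aqp3 higher in each db/db-dapa mouse. This measure is defined only within a segment, so these counts have no share over all genes beside them. A member that stays level comes out higher where the others of its segment fall. The lower and higher members are therefore not independent of each other.

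Ratios of counts within a mouse, in which the library size cancels, were taken for 6 pairs chosen after the values had been seen, so they are given with no test. The ratio of Umod to Slc12a1 was 5.01, 3.86 and 6.92 in db/m, 2.11, 1.80 and 1.69 in db/db and 3.07, 1.54 and 2.05 in db/db-dapa mice. That of Klk1 to Calb1 was 7.46, 6.27 and 9.88 in db/m, 4.01, 4.06 and 2.26 in db/db and 4.09, 3.47 and 2.87 in db/db-dapa mice. In both pairs each db/m mouse lay above each homozygous mouse, db/db replicate 1 included, and the db/db and db/db-dapa mice overlapped. The ratio of Hsd11b2 to Scnn1a, 1.53 to 2.37 in db/m, 0.776 to 1.44 in db/db and 0.736 to 1.31 in db/db-dapa mice, also separated db/m mice from the others. Aqp2 to Aqp3 (0.748 to 2.39) and Slc26a4 to Atp6v1g3 (0.648 to 2.24) overlapped across all groups. Slc12a3 to Pvalb was 3.89 to 5.47 in db/m mice and 7.98 to 14.3 in db/db-dapa mice, whereas db/db mice had 3.88, 4.71 and 17.9.

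**Figure D5:**
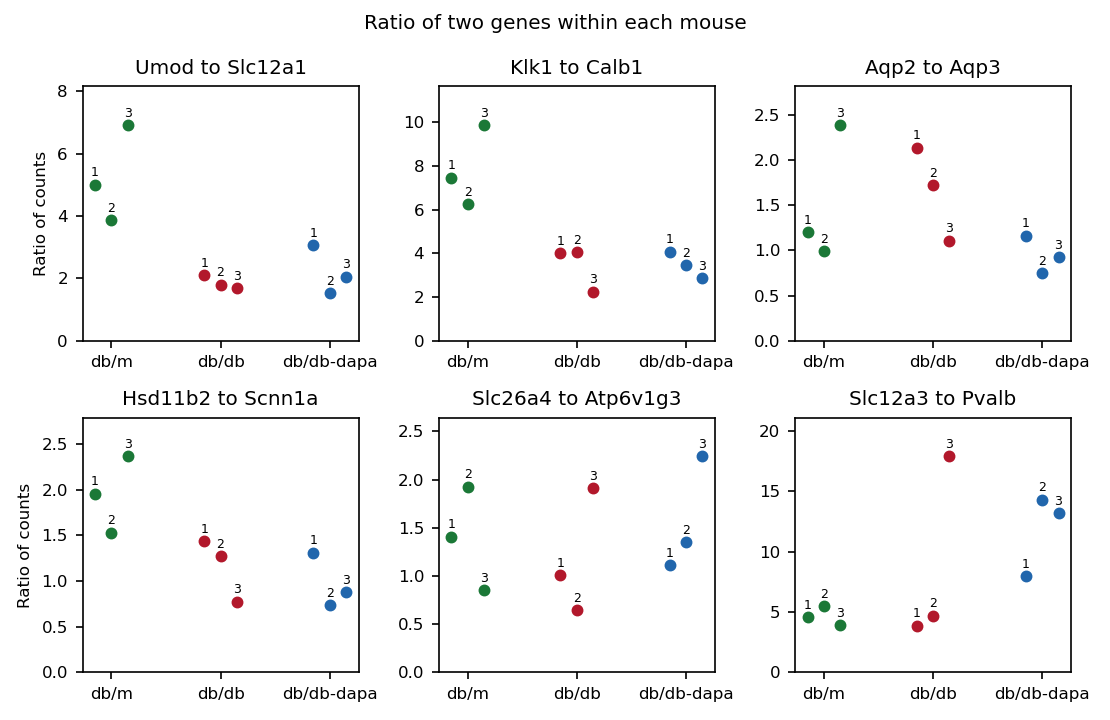
Ratio of the counts of 2 genes within each mouse (points, numbered by replicate) for 6 pairs, each from 1 segment or cell type. In the panels of Umod to Slc12a1, Klk1 to Calb1 and Hsd11b2 to Scnn1a, the 3 db/m mice lie above all others, and in the other panels the db/db mice overlap with the db/m mice.

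A further 42 genes of the same segments, not among the 33, were listed, and 41 were tested. For db/db-dapa versus db/db, 35 were lower and 6 higher, with a median log2 fold change of -0.58, and edgeR called 0 of them. With an unadjusted p under 0.05, 11 were lower (3.27% of all genes) and 1 was higher (1.91%). The thick limb genes (10 tested, among them Casr) had a median of -1.04 and the intercalated cell genes (11, among them Slc4a9, Rhcg and Atp6v1b1) one of -1.12. The distal convoluted and connecting tubule genes (10, among them Wnk4 and S100g) stood at -0.28 and the principal cell genes (10, among them Krt7 and Tfcp2l1) at -0.38. For db/db versus db/m, 18 of the 41 were lower and 23 higher, with a median of 0.15, and 0 lower and 5 higher genes had an unadjusted p under 0.05 (6.21% and 7.53% of all genes). For db/db-dapa versus db/m, 29 were lower and 12 higher, with a median of -0.63, and 10 lower and 6 higher genes had such a p (8.39% and 9.77% of all genes). The called genes were Sgk1 in both comparisons with db/m mice and Npnt in the last, all higher, and they are named here after their values were seen. Sgk1, a kinase that aldosterone induces in principal cells and that many other cells express, was at 116 ± 39.2 CPM in db/m, 312 ± 15.2 CPM in db/db and 240.0 ± 53.3 CPM for db/db-dapa (SD, n = 3 per group). It rose by 1.42 ± 0.25 (SE) on the log2 scale in db/db mice (edgeR, adjusted p = 0.0239) and by 1.05 ± 0.25 in db/db-dapa mice (edgeR, adjusted p = 0.0987). Npnt, an extracellular matrix protein, was at 55.4 ± 12.2 CPM in db/m, 77.8 ± 15.7 CPM in db/db and 119 ± 19.97 CPM for db/db-dapa (SD, n = 3 per group), and rose by 1.10 ± 0.22 (SE) on the log2 scale between the first and the last (edgeR, adjusted p = 0.0601). Both genes were at their lowest of the 9 mice in db/m replicate 3, which was so for 0 of the 33 members. That mouse and db/db replicate 1 were the top pair for 22 of the 41 genes, with 8 of 10 in the thick limb, 10 of 11 in intercalated cells, 1 of 10 in the distal convoluted and connecting tubule and 3 of 10 in principal cells.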

How the data were processed

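Poly(A) RNA of tdTomato-positive cells of 9 mice was sequenced by the authors (101-base single-end reads, stranded kit), mapped to mm10 with TopHat2 2.0.13 and Bowtie2 2.2.3, and quantified with Cufflinks 2.2.1, per the labels' processing notes and the methods. The deposited table is named FPKM but holds estimated counts: 85.9% of its values above 0 are whole and the sums differ between mice. How they were counted, and whether strand was used, is not given in the sources used here.

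The deposited estimated counts were rounded and tested with edgeR 4.0.16 (quasi-likelihood, TMM, R 4.3.3) over 15583 genes in all 9 mice, without pairing, with Benjamini-Hochberg adjustment. CPM was computed from the estimated counts, and log2 levels use a pseudocount of 1. Genes with an adjusted p below 0.1 and a log2 fold change above 1 in size were called. Coordinates and transcript lengths come from GENCODE on GRCm38, in which 33 of 33 members matched, and promoters from RefSeq. DESeq2 1.42.0, limma 3.58.1, other scalings and filters, and leaving out mice were alternatives. On counts simulated for db/db-dapa versus db/db (15583 genes, 200 changed), edgeR recovered 93% of 4-fold and 27.5% of 2-fold changes. The changed genes were drawn only from those above a set mean count, and counts were drawn independently for each gene. Members with few counts, such as Elf5, and a shift that many genes of 1 mouse share were thus not covered. These percentages are not the power for the members. The rule for the members uses no measured value, but members, lists and tests were chosen with earlier results of these data known. By the rule for named genes, values of every mouse are given for the 5 genes that stand for a segment, for the 3 smallest p-values of each comparison and for the highest level per length in each segment. Values of other members, such as Pvalb and Slc4a1, were added after they had been seen.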

Additional observations from a re-analysis of the deposited data

How the results depend on the processing

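The direction of the members for db/db-dapa versus db/db held under each other scaling, filter and tool, whereas the numbers called did not. For named genes, 299 of 330 fold changes under other settings kept direction and side of the threshold, 21 newly passed it and 10 reversed. With 1 mouse left out, 248 of 270 kept both, 10 newly passed and 12 reversed. The cause of these shifts was not tested. Library sizes of 2733349 to 9033123 counts limit the precision of genes near 1 CPM, such as Elf5 and Aqp4.

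Members called for db/db-dapa versus db/m, 0 with edgeR, were 3 without the filter, 7 with DESeq2, 13 with voom and sample weights and 7 when only the 2 groups were fitted. Members called for db/db-dapa versus db/db were 4 with voom, and for db/db versus db/m 1 with DESeq2. All genes called for db/db-dapa versus db/m, 164 with edgeR, were 275 without the filter, 507 with DESeq2, 1619 with voom and 626 with only the 2 groups. For db/db versus db/m, 194 became 363 with DESeq2 and 114 with only the 2 groups. The 0 genes called for db/db-dapa versus db/db became 13 with DESeq2 and 449 with voom.

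With 1 mouse left out, members called were 0 to 0 for db/db-dapa versus db/db and 0 to 1 for db/db versus db/m. The 1 member was called without db/db replicate 1, against 1.35% of all genes in that fit. For db/db-dapa versus db/m, members called were 0 to 9. There were 9 without db/db replicate 3, against 4.27% of all genes. There were 2 without db/m replicate 2 (0.467% of all genes) and 2 without db/db replicate 1 (1.51%). All genes called were 0 to 272, 84 to 230 and 14 to 662 in these 3 comparisons, in the same order. The log2 fold changes that reversed ranged, for db/db versus db/m, from -0.25 to 0.48 (Scnn1a), -0.60 to 0.31 (Slc12a3), -0.68 to 0.52 (Aqp2), -1.05 to 0.12 (Atp6v1g3) and -1.01 to 0.04 (Klk1). For db/db-dapa versus db/m, they ranged from -0.84 to 0.07 (Slc12a3) and -0.29 to 0.38 (Calb1), and for db/db-dapa versus db/db from -0.66 to 0.30 (Umod).

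Other reversals were Calb1 for db/db-dapa versus db/m, at 0.02 with library totals, 0.04 with limma on log2(CPM + 1) and 0.10 with voom, and, for db/db versus db/m with voom, Slc12a3 (0.12) and Aqp2 (0.32). Library totals moved the median of all genes for db/db versus db/m to 0.13. The fit without db/m replicate 3 and db/db replicate 1 together was a choice made after seeing the data. In it, 1 member (Umod) was called for db/db versus db/m, against 0.882% of all genes. For db/db-dapa versus db/m, 108 genes were called. Umod then stood at 0.30 for db/db-dapa versus db/db, Slc12a3 and Aqp2 at 0.11 for db/db versus db/m, and Slc12a3 and Calb1 at 0.07 and 0.38 for db/db-dapa versus db/m.

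The groups share replicate numbers. Deviations from the group means of same-numbered mice correlated at -0.32 to 0.56, over 0.1 in 3 of 9 pairs. The highest values were those of db/db with db/db-dapa for replicate 3 (0.56) and replicate 1 (0.40), whereas replicate 2 of these groups had -0.16. Mice with different numbers reached 0.36. The sources used here do not say that the numbers pair the mice, and a shared batch of same-numbered mice was not tested. With a replicate block, 1 member (Umod) was called for db/db-dapa versus db/m, and 167, 185 and 0 genes in all for db/db-dapa versus db/m, db/db versus db/m and db/db-dapa versus db/db.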
